A study of Homo sapiens with 8 samples.

Results

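The comparison described here asks whether CHERP depletion shifted the abundance of a gene's mRNA in the cytoplasm in the same way as in whole cells. For each gene the effect of CHERP siRNA was taken in the cytoplasm and in whole cells as a difference of log2 abundance, CHERP minus EGFP siRNA, and the whole-cell effect was then subtracted from the cytoplasmic effect. This difference of differences (below, the difference) was above 0 where the cytoplasmic level of a gene went up more, or down less, than its whole-cell level. Of 11888 genes with a skipped exon (SE) or an alternative 5′ or 3′ splice site (A5SS, A3SS) in the tables of either fraction, 8851 had such an event at the same coordinates in both, and 6505 of these averaged 20 reads or more a library in each fraction and were tested.

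The cells were U2OS, a human osteosarcoma line, kept for 48 h after transfection with 20 nM of an siRNA, either EGFP siRNA as the control, whose target is a jellyfish-derived gene, or CHERP #2 siRNA. Poly(A)+ RNA was sequenced from whole cells (EGFP or CHERP siRNA) and from the cytoplasm, the supernatant of cells lysed with NP-40 (EGFP or CHERP siRNA), with 2 biological replicates in each of the 4 groups. A single siRNA against CHERP was sequenced, and the sources used here do not state whether both fractions came from the same cultures. The reads are those that rMATS, a program that counts reads on alternative splicing events, assigned to the events found in both fractions. Whole-cell libraries held from 9524026 to 11654254 of them, cytoplasmic libraries from 3310079 to 4068826. The p-values measure the spread between the replicates of a group, as far as the labels define it.

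CHERP is an RS-domain protein of the nucleus that associates with the U2 snRNP, the particle that recognises the branch point of introns. In mammalian cells an mRNA reaches the cytoplasm after splicing, and transcripts that keep an intron are often held in the nucleus. A whole-cell library therefore mixes nuclear and cytoplasmic RNA, whereas the cytoplasmic library holds what has been exported, and a transcript that is made but not exported can move the former without the latter. Because levels were scaled within each fraction, so that the typical gene had an effect near 0 in both, a shift shared by all transcripts between nucleus and cytoplasm could not be seen.

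CHERP itself, the target of the siRNA, had too few cytoplasmic reads for the test and was read without the read minimum. Its events held 49 and 31 reads in the EGFP siRNA libraries of whole cells and 1 and 8 in the CHERP siRNA libraries. The cytoplasmic counts were 31 and 21 under EGFP siRNA, and 3 and 4 under CHERP siRNA. CHERP was thus lower in every CHERP siRNA library than in any EGFP siRNA library of its fraction. On the log2(level + 0.01) scale it fell by 3.10 in whole cells (SE 0.594, adjusted p = 0.00225, limma) and by 2.67 in the cytoplasm (SE 0.594, adjusted p = 0.00486, limma), and its difference was 0.44 (SE 0.840, adjusted p = 0.998, limma).

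Of the markers of mesenchymal cells checked for the label of the line, VIM had 281805 reads over the whole-cell libraries, FN1 55886 and THY1 9527, and in the cytoplasmic libraries 34979, 3709 and 970. RUNX2 had 37 and 45 reads, and the epithelial marker CDH1 39 and 25. The mesenchymal markers COL1A1, COL1A2, SPARC and CDH2 had no event in both fractions. The same held for the other markers of epithelium, blood and endothelium and for the nuclear RNAs MALAT1 and NEAT1. A gene without such an event was not measured here, which says nothing about its expression. The purity of the cytoplasmic fraction was therefore not checked with the nuclear RNAs. Of 936 introns with an RI (retained intron) event of at least 20 reads in each fraction, 78.0% had a lower inclusion level in the cytoplasm than in whole cells with EGFP siRNA and 78.2% with CHERP siRNA, with medians of 0.0655 and 0.0201 in whole cells and cytoplasm with EGFP siRNA. Here the inclusion level stands for the proportion of unspliced transcripts, computed from reads per nt of effective length of either form, and the spliced form had an effective length of 144 nt in whole cells and of 73 nt in the cytoplasm.

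The whole-cell EGFP siRNA libraries stood apart from each other more than other replicates did. The median gene differed by 0.219 on the log2 scale between them, against 0.123 between the whole-cell CHERP siRNA libraries, 0.155 between the cytoplasmic EGFP siRNA libraries and 0.149 between the cytoplasmic CHERP siRNA libraries. The gap followed base composition: in the quartile of genes with the highest GC content (55.1% to 69.4% in the longest annotated transcript) the first whole-cell EGFP siRNA library was higher than the second by a median of 0.30, and in the quartile with the lowest (30.2% to 41.1%) it was lower, at a median of -0.20. The differences of gene lists and intron classes are therefore given below also without each of these libraries.

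The cytoplasmic and whole-cell effects of CHERP siRNA were close to each other for most genes, and 1 gene, OGT, passed the test of the difference. In the cytoplasm 1391 genes rose (21.4% of those tested) and 1414 fell (21.7%), and in whole cells 1278 rose (19.6%) and 1251 fell (19.2%), at an adjusted p under 0.05 in limma. Called in both fractions were 2075 genes, which is 74.0% of the cytoplasmic calls and 82.0% of the whole-cell calls, and 2074 of them moved the same way, 1038 up and 1036 down. The exception was OGT. Of the difference, 0 genes were called higher (0.0%) and 1 lower (0.0154%). At an unadjusted p under 0.05 in limma, 124 genes (1.91%) lay above 0 and 164 (2.52%) below 0. This makes 288 in all against 325 that uniform p-values would give. The 4 groups share 1 estimate of the spread, to which the wide gap between the whole-cell EGFP siRNA libraries adds. The count of 288 therefore does not show that no further genes differ.

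The sizes of the effects were close as well. Among the 338 genes called in whole cells with an effect over 1 the median was 1.32 in whole cells and 1.30 in the cytoplasm, and among the 408 with an effect under -1 it was -1.27 and -1.33. Genes chosen for their cytoplasmic effect gave a similar picture, with medians of 1.32 in the cytoplasm and 1.20 in whole cells for the 391 over 1 and of -1.35 and -1.18 for the 464 under -1. Across the 6505 genes the effects had a Pearson r of 0.895 and a Spearman rho of 0.873, as a description over genes that share the same 8 libraries. The 730 genes called in the cytoplasm alone and the 454 called in whole cells alone were not shown to differ between fractions, and 683 and 428 of them had estimates of the same sign.

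**Figure D1:**
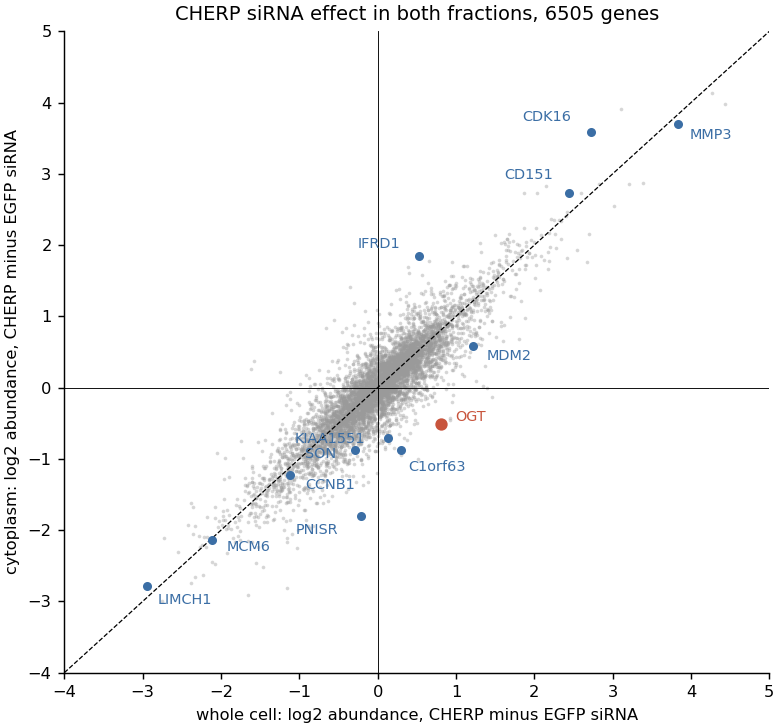
Effect of CHERP siRNA on log2 abundance in whole cells (x axis) and in the cytoplasm (y axis), 1 point per gene for 6505 genes; the dashed line marks equal effects. Most genes lie along the line, from LIMCH1 at -2.94 and -2.78 to MMP3 at 3.84 and 3.69, whereas OGT (red) lies at 0.81 in whole cells and -0.52 in the cytoplasm.

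The test had room for moderate differences to be missed. The median difference was -0.01, with 5th and 95th percentiles of -0.52 and 0.47, and its 95% interval reached a median of 0.545 to either side. For 4675 genes (71.9%) the interval lay between -1 and 1. The standard error fell with depth, from a median of 0.391 in the quartile of genes with 20 to 58.8 cytoplasmic reads to 0.153 in the quartile with at least 388. In data simulated on these genes with independent noise, 33.5% of differences of 1 were recovered, 71% of 1.5 and 83% of 2, whereas 0% of 0.5 were. An absolute difference over 1 was estimated for 68 genes, 33 higher and 35 lower, whose median of cytoplasmic reads was 32.8, against 142 over all genes tested.

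OGT (ENSG00000147162.9) encodes the enzyme that attaches O-linked N-acetylglucosamine to serines and threonines of nuclear and cytoplasmic proteins. Its transcripts are known for an intron that stays unspliced in the nucleus and whose removal responds to the state of O-GlcNAc in the cell. Its scaled level, the reads per nt of effective length summed over its 8 shared events and divided by the library's scaling factor, was 6.31 and 7.29 in the EGFP siRNA libraries of whole cells and 11.3 and 12.4 in the CHERP siRNA libraries. In the cytoplasm it was 1.46 and 1.20 with EGFP siRNA against 0.907 and 0.941 with CHERP siRNA. The groups did not overlap in either fraction, with CHERP siRNA above EGFP siRNA in whole cells and below it in the cytoplasm.

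OGT rose 1.75-fold in whole cells (log2 0.81, SE 0.110, adjusted p = 0.000241, limma) and fell to 0.699-fold in the cytoplasm (log2 -0.52, SE 0.110, adjusted p = 0.00341, limma). The difference was -1.32 (SE 0.156, 95% interval -1.67 to -0.98, adjusted p = 0.0276, limma), so that the cytoplasmic fold change was 0.400 times the whole-cell one. OGT had the smallest p in 16 of 20 alternative fits and never ranked below the 4th gene, and its difference stayed between -1.46 and -1.18. The adjusted p passed 0.05 in 12 of these fits and not in the other 8. With each library left out in turn it lay between 0.00155 and 0.453, and the call was lost without either CHERP siRNA library of whole cells (adjusted p = 0.202 and 0.453), without the first cytoplasmic EGFP siRNA library (0.203) and without the first cytoplasmic CHERP siRNA library (0.123). Without the first whole-cell EGFP siRNA library the difference was -1.21, and without the second it was -1.43. A fit without a library holds 1 library in that group, which adds nothing to the estimated spread. Passing the threshold in such a fit is therefore not support for the call.

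**Figure D2:**
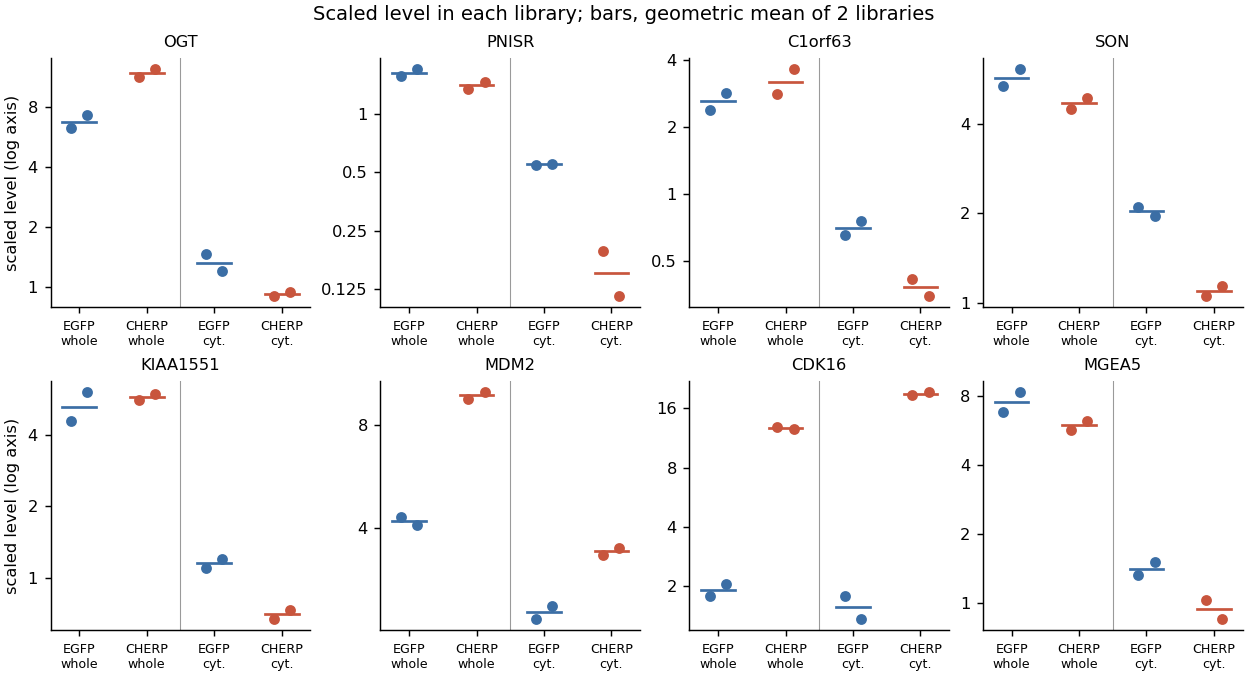
Scaled level (log axis, reads per nt over the library's scaling factor) of 8 genes in each of the 8 libraries; points are libraries, bars the geometric mean of the 2 libraries of a group, blue EGFP siRNA and red CHERP siRNA, with whole cells left and cytoplasm right of the line. Levels are comparable within a fraction only; OGT goes from 6.31 and 7.29 up to 11.3 and 12.4 in whole cells and from 1.46 and 1.20 down to 0.907 and 0.941 in the cytoplasm.

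The retained intron of OGT lies on chromosome X from 70764486 to 70767756 (GRCh37, plus strand). It is 3271 nt long with 41.6% GC, and it is intron 4 of 21 in the canonical transcript OGT-202 of GENCODE 44 lifted to GRCh37, within the coding region. The exon of OGT whose inclusion changed most in whole cells lies at 70775040 to 70775235, is exon 7 of 22 of OGT-202 and coding, and is 196 nt long, a length that leaves a remainder of 1 when divided by 3. The sequences at these sites, read from GRCh37, show where the counted reads end, with the first and last intron bases at each splice site in capitals.

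OGT intron 4, 5′ splice site, chrX:70764476-70764505, plus strand: agaagccaagGTaggtgtttgatagaacac

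OGT intron 4, 3′ splice site, chrX:70767732-70767761, plus strand: tcttctttcattaacccctcctaAGgcatg

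OGT exon 7 with the 2 intron bases on each side, chrX:70775038-70775237, plus strand: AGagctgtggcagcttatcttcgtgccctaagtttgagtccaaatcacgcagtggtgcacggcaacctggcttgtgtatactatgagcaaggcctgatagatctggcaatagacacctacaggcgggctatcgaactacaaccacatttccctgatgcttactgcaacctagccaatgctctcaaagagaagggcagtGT

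Intron 4 of OGT was retained more with CHERP siRNA in both fractions. Its inclusion level was 0.456 and 0.617 with EGFP siRNA against 0.742 and 0.775 with CHERP siRNA in whole cells, from 1230 to 4310 reads per library. In the cytoplasm it was 0.194 and 0.321 with EGFP siRNA against 0.396 and 0.397 with CHERP siRNA, from 155 to 204 reads. Few of these cytoplasmic reads lay on the spliced form, so the cytoplasmic levels are uncertain. The groups did not overlap in either fraction, and the level was lower in the cytoplasm for either siRNA. These levels were looked at after OGT had been called, and no test was run on them.

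At intron 4 the whole-cell increase lay in the unspliced form. With EGFP siRNA the scaled level of the unspliced form of intron 4 was 0.374 and 0.523 in whole cells, and with CHERP siRNA it was 1.05 and 1.24, a ratio of 2.55 between the geometric means. The spliced form was at 0.447 and 0.324 with EGFP siRNA and at 0.366 and 0.358 with CHERP siRNA in whole cells, a ratio of 0.952 with overlapping groups. In the cytoplasm the spliced form was at 0.240 and 0.110 with EGFP siRNA and lower in both CHERP siRNA libraries, at 0.0613 and 0.0730, a ratio of 0.445. These cytoplasmic levels of the spliced form rest on few reads, and the EGFP siRNA libraries stood apart from each other. The cytoplasmic unspliced form was at 0.0575 and 0.0518 with EGFP siRNA and at 0.0401 and 0.0481 with CHERP siRNA, a ratio of 0.836.

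**Figure D3:**
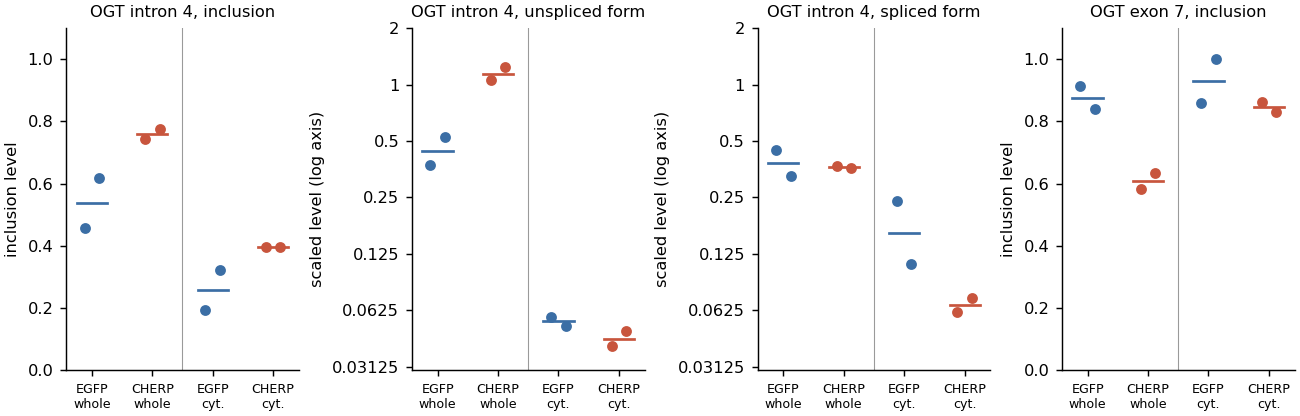
OGT in each library: inclusion level of intron 4, scaled level of its unspliced and of its spliced form (log axes), and inclusion level of exon 7; points are libraries, bars means of 2 (geometric for levels), blue EGFP siRNA and red CHERP siRNA. The unspliced form is higher with CHERP siRNA in whole cells, at 1.05 and 1.24 against 0.374 and 0.523. The spliced form is lower in the cytoplasm, at 0.0613 and 0.0730 against 0.240 and 0.110, from few reads.

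Exon 7 was included at 0.913 and 0.840 with EGFP siRNA and at 0.581 and 0.635 with CHERP siRNA in whole cells. In the cytoplasm the levels were 0.860 and 1.00 with EGFP siRNA against 0.862 and 0.830 with CHERP siRNA, from 38 to 71 reads, and they overlapped. A lower inclusion of this exon with CHERP siRNA was thus seen in whole cells, whereas no such change was seen in the cytoplasm at this depth.

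Intron reads enter the abundance of OGT through 2 of its 8 events, whose longer form spans intron 4. All 8 events had a difference below 0, from -1.65 to -0.89, and 7 of them were higher with CHERP siRNA in whole cells and lower in the cytoplasm. The events are the parts summed into the level of OGT, come from the same libraries and partly overlap. Their shared direction is therefore not separate evidence for the call. Several had low cytoplasmic coverage, and the event with the fewest reads there held 5 to 18 a library. The 6 events whose longer form does not span intron 4 had differences from -1.38 to -0.89. Among them, events of the exons that border intron 4 (70764417 to 70764485 and 70767757 to 70767873) had differences of -0.90, -0.89 and -0.98. Their whole-cell effects were -0.15, 0.39 and 0.64. Events of exons further downstream had differences of -1.28, -1.38 and -1.20 and whole-cell effects of 0.83, 0.72 and 0.79. An example with more reads than most of the 6 is the 117-nt exon from 70782980 to 70783096, given as unscaled counts. In whole cells these were 491 and 679 with EGFP siRNA against 1077 and 1057 with CHERP siRNA. In the cytoplasm they were 51 and 59 against 48 and 37. When every event that overlapped a retained intron was left out, for all genes, OGT had a difference of -1.26 and missed the threshold (adjusted p = 0.102, limma). MGEA5, which encodes the enzyme that removes O-GlcNAc, fell in the cytoplasm (log2 -0.59, SE 0.136, adjusted p = 0.00549, limma). In whole cells its effect was -0.33 (adjusted p = 0.0766, limma), and its difference was -0.26 with a 95% interval of -0.68 to 0.17.

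The genes next to OGT by p did not pass the threshold (adjusted p of 0.671 to 0.969 for the next 12, limma), and they were picked after their values were seen. Among the 12 were PNISR, C1orf63, KIAA1551, CDK16, SON, IFRD1, MDM2, C6orf62, IL1RAP, LRRC58 and PRRC2B, of which CDK16 and IFRD1 had a difference above 0. In PNISR, C1orf63, KIAA1551, IFRD1, C6orf62, LRRC58 and PRRC2B the cytoplasmic effect was called and the whole-cell effect was not.

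PNISR encodes an RS protein that binds pinin. Its level was 1.57 and 1.70 with EGFP siRNA against 1.35 and 1.46 with CHERP siRNA in whole cells, and in the cytoplasm 0.547 and 0.555 against 0.197 and 0.116. It fell in the cytoplasm (log2 -1.80, adjusted p = 8.69e-05, limma), with a mean of 33.2 reads there, and its whole-cell effect was -0.22 (adjusted p = 0.453). The difference was -1.58 (SE 0.303).

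C1orf63, an arginine- and serine-rich protein now named RSRP1, was at 2.39 and 2.87 with EGFP siRNA and at 2.83 and 3.65 with CHERP siRNA in whole cells. In the cytoplasm it was at 0.660 and 0.760 with EGFP siRNA and at 0.417 and 0.352 with CHERP siRNA. It fell in the cytoplasm (log2 -0.87, adjusted p = 0.00141, limma), and its whole-cell effect was 0.29 (adjusted p = 0.169). Like OGT, it had an intron that was retained more in whole cells, on chromosome 1 from 25570125 to 25571640 (GRCh37, minus strand), at inclusion levels of 0.313 and 0.458 with EGFP siRNA against 0.716 and 0.651 with CHERP siRNA. That intron is intron 3 of 4 of the canonical RSRP1-201. The cytoplasmic RI table used here held no event for it.

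SON, a large RS protein that organises nuclear speckles, and KIAA1551, a factor of retroelement silencing, had deep coverage and the same order of effects. SON was at 5.34 and 6.10 with EGFP siRNA and at 4.50 and 4.88 with CHERP siRNA in whole cells, and at 2.10 and 1.95 against 1.06 and 1.14 in the cytoplasm. It fell in both fractions, with log2 effects of -0.28 in whole cells (adjusted p = 0.0300, limma) and -0.88 in the cytoplasm (adjusted p = 3.53e-05, limma). KIAA1551 fell in the cytoplasm (log2 -0.71, adjusted p = 0.000838, limma), and its whole-cell effect was 0.14 (adjusted p = 0.389). Without the second whole-cell EGFP siRNA library the differences of C1orf63, SON and KIAA1551 were -1.30, -0.69 and -1.04, and that of C1orf63 was -1.02 without the first. Such a fit holds 1 library in that group, which adds nothing to the estimated spread. Without the second library the median difference was -0.16 in the quartile with the lowest GC content and 0.19 in the highest. Passing the threshold in such a fit is therefore not support for a gene.

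MDM2, the ubiquitin ligase of p53, rose in both fractions, and less in the cytoplasm. Its level was 4.33 and 4.09 with EGFP siRNA against 9.58 and 9.98 with CHERP siRNA in whole cells (log2 1.21, adjusted p = 8.92e-06, limma). In the cytoplasm it was 2.18 and 2.38 with EGFP siRNA against 3.35 and 3.50 with CHERP siRNA (log2 0.59, adjusted p = 0.000933, limma). CDK16, a cyclin-dependent kinase of the PCTAIRE family, rose more in the cytoplasm, from 1.79 and 1.37 to 18.6 and 19.3 (log2 3.59, adjusted p = 2.88e-08, limma), than in whole cells, from 1.78 and 2.07 to 12.8 and 12.6 (log2 2.72, adjusted p = 2.66e-07, limma). IFRD1 rose in the cytoplasm (log2 1.85, adjusted p = 4.90e-05, limma), with a whole-cell effect of 0.53 (adjusted p = 0.0586). The differences were -0.63 for MDM2, 0.86 for CDK16 and 1.32 for IFRD1, and none of these passed the adjusted threshold.

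The genes with the largest effects in both fractions, among those with at least 100 cytoplasmic reads, mostly had an interval of the difference that held 0. The exceptions were CDK16, above, with an interval of 0.46 to 1.27, and the tetraspanin CD151, with a difference of 0.28, and neither passed the adjusted threshold. MMP3, the matrix metalloproteinase stromelysin-1, went from 9.71 and 11.3 to 150 in both CHERP siRNA libraries of whole cells and from 3.73 and 4.05 to 51.1 and 49.6 in the cytoplasm. Its effects were 3.84 and 3.69, and the interval of the difference was -0.40 to 0.11. CD151, CPA4, SPP1 and CNN1 rose by 2.41 to 2.82 in whole cells and by 2.41 to 2.86 in the cytoplasm. LIMCH1 fell in both, with effects of -2.94 in whole cells and -2.78 in the cytoplasm (interval of the difference -0.33 to 0.66), and DUT, MCM6, KIF20A, ESPL1 and SMC4 fell with effects of -2.28 to -2.08 and of -2.48 to -2.08. The interval of the difference for MCM6, a subunit of the replicative helicase, was -0.37 to 0.32.

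Grouped by function, the lists had similar median effects in both fractions. Of 26 lists of genes, 769 genes in all, the M-phase and DNA replication lists had the lowest medians of the effect in each fraction and the integrated stress response list the highest. With all 8 libraries no list had a median difference further from 0 than 0.08 except the list of CLK kinases and speckle RS proteins, beside a median of -0.01 over all 6505 genes. OGT is in none of the lists, and no member of any list passed the test of the difference.

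**Figure D4:**
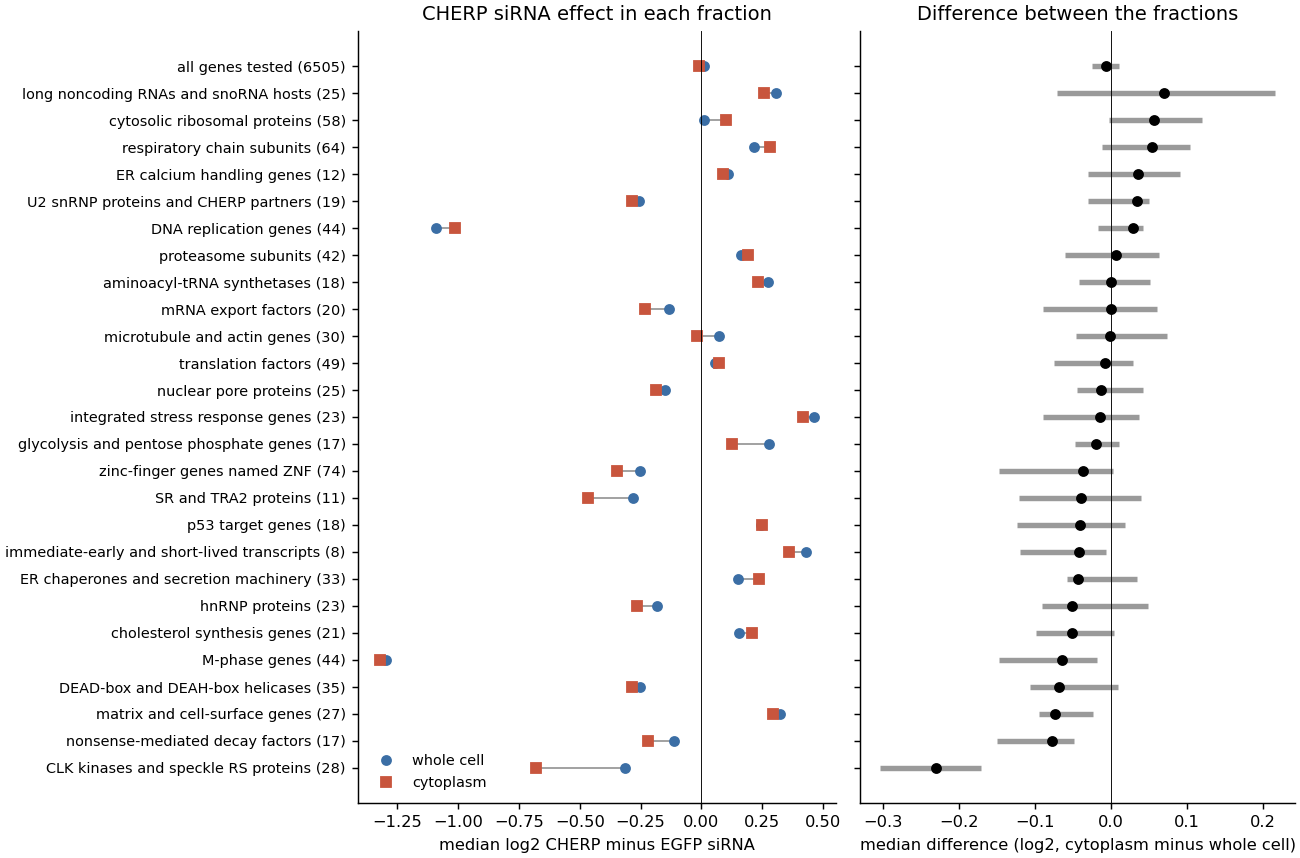
Left, median effect of CHERP siRNA on log2 abundance in whole cells (blue circles) and in the cytoplasm (red squares) for all genes tested and 26 gene lists, with the number tested in parentheses; right, median difference (black) and its range with each library left out (grey). The CLK and speckle list has the lowest median difference, at -0.23, and its range of -0.30 to -0.17 lies below those of the all-gene median, -0.02 to 0.01.

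Genes of M phase, which build the spindle, the kinetochore and the cytokinetic machinery, were the group with the largest effect. All 44 of the 44 M-phase genes tested fell in the cytoplasm and 43 fell in whole cells, with medians of -1.32 and -1.29, and the remaining gene, ZWILCH, was at -0.40 in whole cells. Over all genes 21.7% fell in the cytoplasm and 19.2% in whole cells. In bulk RNA, fewer cells in a phase and less RNA per cell cannot be told apart. CCNB1, the mitotic cyclin, fell, with log2 effects of -1.11 in whole cells (adjusted p = 1.39e-05, limma) and -1.22 in the cytoplasm (adjusted p = 7.07e-06, limma). UBE2C, the ubiquitin-conjugating enzyme of the anaphase-promoting complex, had effects of -0.96 and -0.65. The aurora kinase AURKA was at -0.88 and -1.21, BRCA1 at -1.40 and -1.80 and BIRC5 at -0.66 and -0.65, all called. The median difference was -0.06 (quartiles -0.24 and 0.10), or -0.02 and -0.09 without the first and the second whole-cell EGFP siRNA library, and 41 of the 44 genes had an interval within -1 and 1.

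DNA replication genes had similar median effects in both fractions. Of 44 tested, 34 fell in the cytoplasm and 33 in whole cells, 32 of them in both, with medians of -1.01 and -1.09. The median difference was 0.03 (quartiles -0.11 and 0.22), or 0.04 and -0.02 without the first and the second whole-cell EGFP siRNA library. Of the 44 genes, 33 had an interval within -1 and 1. TYMS, thymidylate synthase, fell in both, at -1.89 in whole cells and -1.79 in the cytoplasm, with an interval of the difference from -0.17 to 0.37.

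Genes of the integrated stress response, the program of amino acid synthesis and transport that ATF4 drives, had the highest list medians. Of 23 tested, 14 rose and 2 fell in the cytoplasm, and 13 rose and 0 fell in whole cells, with medians of 0.42 and 0.46, where 21.4% and 19.6% of all genes rose. The median difference was -0.02, or 0.04 and -0.09 without the first and the second whole-cell EGFP siRNA library. MTHFD2 rose by 0.44 in whole cells and by 0.41 in the cytoplasm. Of 18 p53 targets, 5 rose in each fraction, while 2 fell in the cytoplasm and 3 in whole cells, where 21.4% and 19.6% of all genes rose and 21.7% and 19.2% fell. CCNG1 rose by 0.64 and 0.60. MDM2, above, was the p53 target with an unadjusted p under 0.05 for the difference.

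Genes for respiratory chain subunits rose more often than genes at large and seldom fell, and those for cytosolic ribosomal proteins had smaller median effects. Of all genes tested, 21.4% rose and 21.7% fell in the cytoplasm, and 19.6% rose and 19.2% fell in whole cells. Of 64 respiratory chain subunits, 27 rose and 1 fell in the cytoplasm and 22 rose and 1 fell in whole cells, with medians of 0.28 and 0.22. Of 58 cytosolic ribosomal proteins, 15 rose and 5 fell in the cytoplasm and 6 rose and 6 fell in whole cells, with medians of 0.10 and 0.01. Their median differences, 0.05 and 0.06, fell to -0.01 and -0.00 without the second whole-cell EGFP siRNA library and were 0.10 and 0.12 without the first. GAS5, a long noncoding RNA that hosts snoRNAs and is degraded when translated, rose by 0.69 in whole cells (adjusted p = 0.000268, limma) and by 1.06 in the cytoplasm (adjusted p = 1.37e-05, limma). Its difference of 0.37 did not pass (adjusted p = 0.997, limma), and without the first whole-cell EGFP siRNA library it was 0.55.

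In each fraction most of the factors that handle mRNA between splicing and export were not called, as was true of all genes tested. Of 20 mRNA export factors, 7 fell and 1 rose in the cytoplasm and 6 fell and 1 rose in whole cells. XPO1, the export receptor for proteins and some RNAs, fell in both, at -0.55 in whole cells and -0.80 in the cytoplasm. Of 25 nuclear pore proteins 8 fell and 3 rose in the cytoplasm and 7 fell and 3 rose in whole cells, and of 19 proteins of the U2 snRNP and partners of CHERP 6 fell and 2 rose in the cytoplasm and 7 fell and 2 rose in whole cells. Over all genes 21.7% fell and 21.4% rose in the cytoplasm and 19.2% fell and 19.6% rose in whole cells. The median differences of the export, pore and U2 lists were -0.00, -0.01 and 0.03, without the first whole-cell EGFP siRNA library 0.03, 0.04 and 0.02, and without the second -0.08, -0.03 and -0.03. Of 17 factors of nonsense-mediated decay 5 fell in each fraction and 1 rose in the cytoplasm, and the median difference was -0.08, or -0.05 and -0.15 without the first and the second of these libraries.

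The other families of RNA-binding proteins were called in similar numbers in both fractions, with hnRNP proteins the furthest apart. Of 11 SR and TRA2 proteins, 5 fell in each fraction and 0 rose. Of 23 hnRNP proteins, 12 fell and 5 rose in the cytoplasm, and 7 fell and 5 rose in whole cells. Of 35 DEAD-box and DEAH-box helicases, 13 fell and 4 rose in the cytoplasm, and 11 fell and 3 rose in whole cells. Their median differences were -0.04, -0.05 and -0.07, without the first whole-cell EGFP siRNA library they were above 0, at 0.04, 0.05 and 0.01, and without the second they were -0.12, -0.09 and -0.09. Over all genes 21.7% fell in the cytoplasm and 19.2% in whole cells.

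Among genes of secretion and the cell surface, more rose than fell. Of 27 matrix and cell-surface genes, 13 rose and 5 fell in the cytoplasm, and 12 rose and 5 fell in whole cells. Of 33 ER chaperones and genes of the secretion machinery, 13 rose and 5 fell in the cytoplasm, and 10 rose and 3 fell in whole cells. Their median differences were -0.07 and -0.04, or -0.09 and -0.03 without the first whole-cell EGFP siRNA library and -0.07 and -0.04 without the second. Over all genes 21.4% rose in the cytoplasm and 19.6% in whole cells. Of 74 zinc-finger genes named ZNF, in contrast, 22 fell and 2 rose in the cytoplasm, and 19 fell and 6 rose in whole cells. The shares of all genes that fell were 21.7% in the cytoplasm and 19.2% in whole cells. The ZNF list had a median difference of -0.04, or 0.0023 and -0.08 without the first and the second whole-cell EGFP siRNA library.

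The CLK kinases phosphorylate SR proteins, and the RS proteins of nuclear speckles include regulators whose own transcripts often keep introns. All 28 genes of this list were tested. In the cytoplasm 23 fell and 0 rose, with a median of -0.68, and in whole cells 14 fell and 0 rose, with a median of -0.32, where 21.7% and 19.2% of all genes fell. The median difference was -0.23 (quartiles -0.39 and -0.05), and 22 of the 28 lay below 0, against 3336 of all 6505 genes. None passed the adjusted threshold, while 8 had an unadjusted p under 0.05, all with a difference below 0, which held for 2.52% of all genes (1.91% above 0). These were PNISR, C1orf63, CCNL1, SON, CLK2, LUC7L, RBM39 and BCLAF1. PNISR, C1orf63 and SON are also among the genes next to OGT by p, above. The list was chosen with earlier results of these data known, so its comparison with all genes is a description and not separate evidence.

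**Figure D5:**
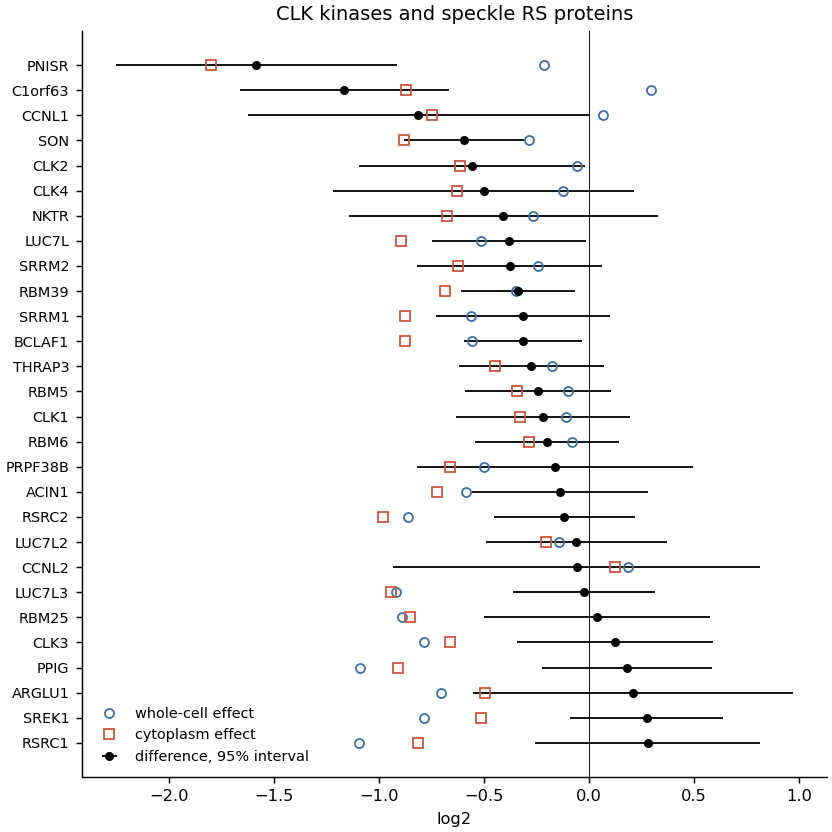
Whole-cell effect (open blue circles), cytoplasmic effect (open red squares) and their difference with its 95% interval (black) for the 28 CLK kinases and speckle RS proteins, in log2. The differences range from -1.58 for PNISR to 0.28 for RSRC1, and 22 lie below 0.

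The members differed among themselves. RBM39, a splicing coactivator and the member with the most reads, fell in both fractions, at -0.35 in whole cells (adjusted p = 0.00952, limma) and -0.69 in the cytoplasm (adjusted p = 0.000135, limma). CLK2 had a whole-cell effect of -0.06 and fell in the cytoplasm, at -0.61 (adjusted p = 0.0145, limma), from levels of 1.05 and 1.08 to 0.633 and 0.756. CLK1 was not called in either fraction (-0.11 and -0.33). LUC7L3, RSRC2 and RBM25 fell by nearly the same amount in both, with effects of -0.92, -0.86 and -0.89 in whole cells and -0.94, -0.98 and -0.85 in the cytoplasm. SREK1, PPIG, RSRC1 and CLK3 fell in both fractions, with a difference above 0 in each (0.12 to 0.28).

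The list median held its sign with each library left out, from -0.30 to -0.17. Without the first whole-cell EGFP siRNA library 19 of the 28 genes lay below 0, and without the second 23. Without events over a retained intron the median was -0.18, and with the most-read event of each gene alone it was -0.08. The median GC content of the list was 41.5%, against 47.2% over all genes, and the quartile of genes with the lowest GC content had a median difference of -0.05. That value was 0.05 without the first whole-cell EGFP siRNA library and -0.16 without the second, and the part of base composition in the list's median was not tested.

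Whether retention of an intron in whole cells goes with a lower cytoplasmic level was examined over all genes. Of 2810 RI events of whole cells with a mean of at least 20 reads, 147 (5.23%) gained and 143 (5.09%) lost inclusion by at least 0.1 with groups that did not overlap. The 104 tested genes with a gained intron, and no lost one, had a median difference of 0.10 (quartiles -0.08 and 0.24), and 33.7% lay below 0. The 95 tested genes with a lost intron had a median of 0.05, and 38.9% lay below 0. Genes with an RI event of neither kind (1154) had a median of 0.02, and genes without an RI event of that depth (5148) -0.02. Without the first whole-cell EGFP siRNA library these medians were -0.01 and 0.01, and without the second 0.05 and -0.04. The median for gained introns was 0.06 without the first whole-cell EGFP siRNA library, 0.10 without the second and 0.05 without the first cytoplasmic EGFP siRNA library. It was 0.06 without events over a retained intron, 0.05 with a minimum of 100 reads on the event, and 0.03 with scaling by total abundance, which moved the median of all genes to -0.07. The median for lost introns was 0.06 without the first whole-cell EGFP siRNA library and 0.11 without the second, 0.02 without the second cytoplasmic EGFP siRNA library and 0.09 without the second cytoplasmic CHERP siRNA library, and it was -0.02 with scaling by total abundance.

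OGT and C1orf63, with differences of -1.32 and -1.16, both have a gained intron, and the median of that class lay above 0. PNISR, with a difference of -1.58, has a lost intron, on chromosome 6 from 99851759 to 99852478 (GRCh37, minus strand), at inclusion levels in whole cells of 0.540 and 0.591 with EGFP siRNA against 0.384 and 0.420 with CHERP siRNA. The 35 gained introns with at least 20 reads in each fraction had a median change of 0.14 in whole cells and of -0.01 in the cytoplasm, and the 42 lost introns of -0.16 and -0.04. In the class of gained introns 13 genes rose and 26 fell in whole cells, and 16 rose and 26 fell in the cytoplasm. In the class of lost introns 19 rose and 9 fell in whole cells, and 24 rose and 12 fell in the cytoplasm. Over all genes 19.6% rose and 19.2% fell in whole cells, and 21.4% rose and 21.7% fell in the cytoplasm. Of the difference, 3 genes with a gained intron lay above 0 and 5 below 0 at an unadjusted p under 0.05 (limma). With a lost intron these numbers were 6 and 3, and over all genes 1.91% lay above 0 and 2.52% below 0. By transcript length, the quartiles differed as well, with a median difference of 0.04 in the quartile with the shortest transcripts and of -0.08 in that with the longest. These medians were 0.06 and -0.04 without the first whole-cell EGFP siRNA library and 0.03 and -0.12 without the second. The first of these libraries minus the second had medians of -0.04 and -0.09 in these quartiles.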

How the data were processed

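Reads were mapped by the authors with STAR 2.5.2b to hg19, and rMATS was run, whose version is not given in the sources used here. The 8 deposited SE, A5SS, A3SS and RI tables hold, in a unit of their own, joined cells with the raw reads of 2 libraries on each form, without normalization. The deposited table of RSEM and EBSeq means and ratios and the MXE tables were not used, nor were the authors' p-values and 16 columns of inclusion levels per library. Libraries were taken in the order of the cell, which carries no replicate number.

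Reads over effective length were summed per gene over SE, A5SS and A3SS events shared by both fractions (29100) and scaled by median ratios within each fraction. log2(level + 0.01) was fitted with limma 3.58.1 in R 4.3.3 over the 4 groups, with a variance trend on reads, for genes averaging 20 reads or more in each fraction. p-values were adjusted over 6505 genes by the Benjamini-Hochberg method, two-sided, at 0.05. With 2 libraries per group the fit has 4 residual degrees of freedom, so precision rests on moderation across genes. Because an event's reads can be shared with other events of the gene, a level is an index and not a count of molecules. The fit was tested on simulated data with 200 changed genes, in which 5.63%, 4.7% and 4.05% of calls were false at differences of 1, 1.5 and 2. The simulated noise was normal and independent between libraries and genes, with each gene's own residual variance. It held no gap between libraries along base composition, so these rates need not hold for the measured data. Named genes were called genes, those called in opposite directions, the members of each list with the most reads, and CHERP, and every other gene was named after its values were seen. Some genes are not reported here. The genes and lists were chosen with earlier results of these data known. Python 3.11.15, numpy 2.4.6, pandas 2.3.3 and scipy 1.17.1 were used.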

Additional observations from a re-analysis of the deposited data

Results flagged for a closer look

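OGT was the gene whose CHERP siRNA effect differed between cytoplasm and whole cells by the test of the difference itself, at -1.32 (SE 0.156, adjusted p = 0.0276, limma). Every CHERP siRNA library lay above every EGFP siRNA library in whole cells and below every EGFP siRNA library in the cytoplasm. In 4 of the 8 fits that left out a library the call was lost.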

How the results depend on the processing

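The number of genes with a lower difference was 0 with all events of each fraction (OGT adjusted p = 0.0617), with 1 event per gene (0.164), without a variance trend (0.639) and without events over a retained intron (0.102, chosen after seeing the data), and it was 0 to 6 with each library left out, while the number with a higher difference was 0 to 19. The 6 and the 19 came without the second whole-cell EGFP siRNA library, where RPS15 (2.16) and OGT (-1.43) were among the calls, and 4 lower genes came without the second cytoplasmic CHERP siRNA library. In whole cells the genes called higher were 743 to 1326 and those called lower 770 to 1291 with each library left out, the lowest values coming without either CHERP siRNA library of whole cells. All other settings, pseudocounts of 0.001 and 0.05, a minimum of 50 reads or none, other scalings, SE events alone and a weight per fraction, kept 0 higher and 1 lower. Scaling by total abundance moved the median difference of all genes to -0.07 and the cytoplasmic calls to 1088 higher and 1735 lower. Each fit without a library had 1 library left in that group, so its number of calls is not support for any gene. No paired analysis was possible because the columns carry no replicate numbers. At a difference of 0.5 no simulated difference was recovered; the shares of depth and of the number of libraries in this were not tested.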
